A study of Mus musculus with 6 samples.

Results

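Transcripts of 10 genes that encode intermediate filament and nuclear lamin proteins were followed in stretched and unstretched mouse podocytes: Vim, Nes, Des, Krt7, Krt8, Krt18, Krt19, Lmna, Lmnb1 and Lmnb2. They were chosen by gene symbol, and 23 probe sets of 45037 on the array had one of these symbols as their single gene symbol. The 10 genes stand among 18193 genes tested. The stretched group was differentiated SVI podocytes under cyclic biaxial stretch at 0.5 Hz, with a linear strain of up to 5%, for 3 days. The unstretched group was the same cells at rest. SVI is a conditionally immortalized mouse podocyte line from the kidney glomerulus, so all samples come from 1 line. Both groups were kept at 38 °C in RPMI medium with 10% serum during 1 to 2 weeks of differentiation, and each had 3 Affymetrix arrays. The design text speaks of 3 independent batches but does not define them. The p-values therefore reflect only how these arrays scattered, part of which may be technical.

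Intermediate filaments are rope-like polymers that give cells and nuclei resistance to deformation. Vimentin and desmin form filaments of their own, nestin joins vimentin or desmin filaments, and keratins assemble only as pairs of a type I and a type II chain. Lamins line the inner nuclear membrane, and the ratio of A-type to B-type lamins is known to differ between stiff and soft tissues. Podocytes have vimentin and nestin filaments in the cell body and major processes, whereas keratins mark simple epithelia such as the parietal cells of the glomerulus.

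The arrays were close in overall level, with medians of 4.923 to 4.957 log2 units on stretched and 4.961 to 4.981 on unstretched arrays. The SD over probe sets was 2.07 to 2.10 on stretched and 2.03 to 2.05 on unstretched arrays. Thus every stretched array had a lower median and a wider spread than any unstretched array, and the part of this in the results was not tested. Across probe sets, Pearson r was 0.995 to 0.997 within the stretched group and 0.993 to 0.994 within the unstretched group, and 0.987 to 0.990 for arrays of different groups. A larger excess of a control's 3' probe set over its 5' one is a sign of less intact RNA. For the beta-actin control this excess was 1.25 to 1.35 log2 units on stretched arrays and 1.54 to 1.59 on unstretched arrays, with no overlap. The Gapdh control gave overlapping values of 0.06 to 0.25 on stretched and 0.19 to 0.32 on unstretched arrays. The part of RNA integrity in the results below was not tested. Of 8 podocyte markers measured, 0 rose and 2 fell (Synpo and Clic5) in limma, against 1 and 2 at an unadjusted p under 0.05. The share of all genes at an unadjusted p was not counted, so only adjusted counts have a background. Over all genes 7.98% rose and 6.76% fell in limma. The podocyte list lay at a mean log2 value of 6.27 to 6.37 on stretched and 6.39 to 6.53 on unstretched arrays. Of its defining genes 4, Nphs1, Tcf21, Ptpro and Clic5, were dimmer than the median gene (5.74 log2 units), while Wt1, Podxl and Synpo were brighter.

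By the brightest probe set of each gene, Vim and Nes were higher and Krt7 lower on stretched arrays. The other 7 genes did not pass. A call here is a Benjamini-Hochberg adjusted p under 0.05 over all genes in limma. The Krt7 call held in all 14 alternatives tried. The Nes call ended with averaged probe sets (log2 change 0.18, limma adjusted p = 0.131). The Vim call ended on leaving out any single stretched array, without unstretched replicate 1 and after quantile normalization again. Of the 10 genes, 2 rose and 1 fell, against 7.98% and 6.76% of all genes (14.7% in either direction). The groups did not overlap in 4 of the 10 genes, against 32.6% of all genes. The median log2 change of the 10 was 0.14, beside -0.02 over all genes. These are shares of bulk RNA, in which fewer cells of a type and less RNA per cell cannot be told apart. RMA values also hold the overall level of arrays nearly equal, so each change is relative to the rest of the RNA.

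**Figure D1:**
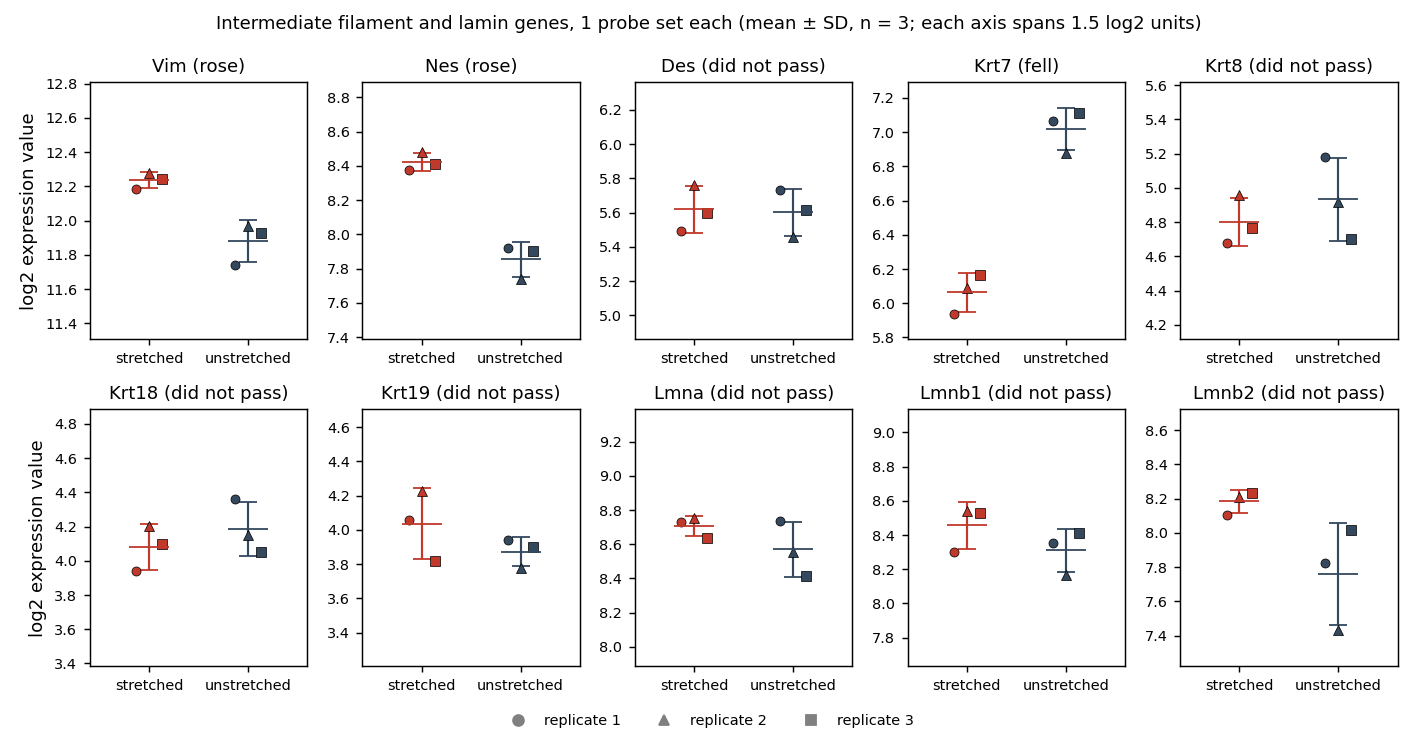
The log2 expression value (vertical axis) of each gene on the 3 stretched (red) and 3 unstretched (dark) arrays, with 1 symbol per replicate number and bars for the mean and SD. Vim, Nes and Lmnb2 lie higher and Krt7 lower on every stretched array than on any unstretched array, and the groups overlap in the other genes.

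The upstream sequences of the 3 genes that passed are shown to place their probe-set changes beside the DNA in front of each gene. Each is the 250 bases before the gene's start from RefSeq on GRCm38.p6, read 5′ to 3′ on the gene's strand, which is the plus strand for all 3. Capitals mark matches on either strand. The AP-1 letters searched were TGANTCA. For the TATA box they were TATAAA. The GC box was spelled GGGCGG. The last motif with fixed letters was CCAAT, and the CArG box of SRF was searched as well. No marked matches overlap each other.
Vim, chr2:13574061-13574310: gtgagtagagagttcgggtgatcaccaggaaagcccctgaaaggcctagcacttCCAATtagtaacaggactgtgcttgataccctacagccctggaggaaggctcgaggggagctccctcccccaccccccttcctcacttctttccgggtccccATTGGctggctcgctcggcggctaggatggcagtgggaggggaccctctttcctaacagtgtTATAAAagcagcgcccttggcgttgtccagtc
Nes, chr3:87970843-87971092: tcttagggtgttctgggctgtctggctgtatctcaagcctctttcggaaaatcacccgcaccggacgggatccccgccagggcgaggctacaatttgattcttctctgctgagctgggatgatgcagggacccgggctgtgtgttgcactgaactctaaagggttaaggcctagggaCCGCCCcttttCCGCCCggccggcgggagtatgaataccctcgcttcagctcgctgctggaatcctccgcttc
Krt7, chr15:101412153-101412402: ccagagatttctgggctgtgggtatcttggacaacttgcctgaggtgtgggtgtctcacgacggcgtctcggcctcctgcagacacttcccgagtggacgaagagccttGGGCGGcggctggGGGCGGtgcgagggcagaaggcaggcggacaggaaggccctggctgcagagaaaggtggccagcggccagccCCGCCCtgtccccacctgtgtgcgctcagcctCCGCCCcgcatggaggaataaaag

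The Vim window on chromosome 2 held a TATA box 32 bases before the start and CCAAT boxes at 196 and 94 bases. Of 32851 windows of this length in the table, 12.4% held TATAAA and 33.8% held CCAAT. The Nes window on chromosome 3 held 2 GC boxes, at 73 and 62 bases, and the Krt7 window on chromosome 15 held 4, at 141, 128, 56 and 24 bases, where 32.7% of windows held at least 1. AP-1 letters (6.75% of windows) and the CArG box (1.47%) were in none of the 3 windows. The table had an entry for 8 of the 10 genes; Krt19 and Lmnb1 had none.

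Vimentin (Vim), the main filament protein of mesenchymal cells, was read by 3 probe sets. The brightest, 1450641_at, had log2 values of 12.19, 12.28 and 12.24 on stretched arrays, against 11.74, 11.97 and 11.93 on unstretched arrays. The groups did not overlap, and the unstretched arrays were the more scattered. The means were 12.23 ± 0.05 in stretched and 11.88 ± 0.12 in unstretched cells (SD, n = 3 each). Vim rose by 0.35 on the log2 scale (SE 0.09, 95% interval 0.16 to 0.55), a level 1.28-fold higher (limma adjusted p = 0.0233), and 13.4% of all genes had a larger absolute change.

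The dimmer Vim probe sets moved further. Probe set 1438118_x_at read 11.87, 11.80 and 12.00 on stretched arrays, against 11.34, 11.21 and 11.00 on unstretched arrays. Probe set 1456292_a_at read 11.79, 11.79 and 11.92 on stretched arrays, against 10.96, 11.09 and 10.97 on unstretched arrays. Neither overlapped between groups, and with every probe set tested they rose by 0.70 (SE 0.11, limma adjusted p = 0.00276) and by 0.82 (SE 0.09, limma adjusted p = 0.000473). The brightest rose by the same 0.35 in that test (limma adjusted p = 0.0345), so all 3 passed. Probe sets with the suffix _x_at can also bind other transcripts, and those with _a_at read several transcripts of 1 gene.

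The size of the Vim change depended on the probe set, and its call on single arrays. With its 3 probe sets averaged, Vim rose by 0.63 on the log2 scale (limma adjusted p = 0.000599). With any 1 array left out, the change on the brightest probe set stayed between 0.29 and 0.40. The call was lost on leaving out stretched replicate 1 (limma adjusted p = 0.0582), 2 (0.0839) or 3 (0.0727), without unstretched replicate 1 (0.0724) and after quantile normalization again (0.0915), over a range of 0.000599 to 0.0915 in all alternatives.

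Nestin (Nes), a long filament protein that copolymerizes with vimentin and is a known podocyte product, was also read by 3 probe sets. The brightest, 1449022_at, had log2 values of 8.37, 8.48 and 8.41 on stretched arrays, against 7.92, 7.74 and 7.90 on unstretched arrays. Every stretched array lay above every unstretched one. The means were 8.42 ± 0.05 in stretched and 7.85 ± 0.10 in unstretched cells (SD, n = 3 each). Nes rose by 0.57 on the log2 scale (SE 0.09, 95% interval 0.37 to 0.76), a level 1.48-fold higher (limma adjusted p = 0.00182), and 4.91% of all genes had a larger absolute change.

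The remaining Nes probe sets did not show that rise. Probe set 1418289_at read 5.71, 5.89 and 5.99 on stretched arrays, against 5.88, 5.88 and 5.72 on unstretched arrays. Probe set 1453997_a_at read 4.17, 4.11 and 4.24 on stretched arrays, against 4.29, 4.23 and 4.16 on unstretched arrays. Both overlapped between the groups, with log2 changes of 0.03 and -0.06 (limma adjusted p = 0.874 and 0.753 over all probe sets). Probe set 1453997_a_at was dimmer than the median gene, and a dim probe set can be mostly background. Averaging the 3 ended the Nes call, with a log2 change of 0.18 (limma adjusted p = 0.131).

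Desmin (Des), the filament protein of muscle and of mesangial cells, did not pass. Its brighter probe set, 1426731_at, had log2 values of 5.49, 5.76 and 5.60 on stretched arrays, against 5.73, 5.46 and 5.62 on unstretched arrays, so the groups overlapped over nearly their whole range. Des had a mean difference of 0.02 log2 units (SE 0.10, 95% interval -0.21 to 0.24), with a limma adjusted p of 0.943. Its dimmer probe set had a log2 change of -0.06 (SE 0.12), and both were dimmer than the median gene.

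**Figure D2:**
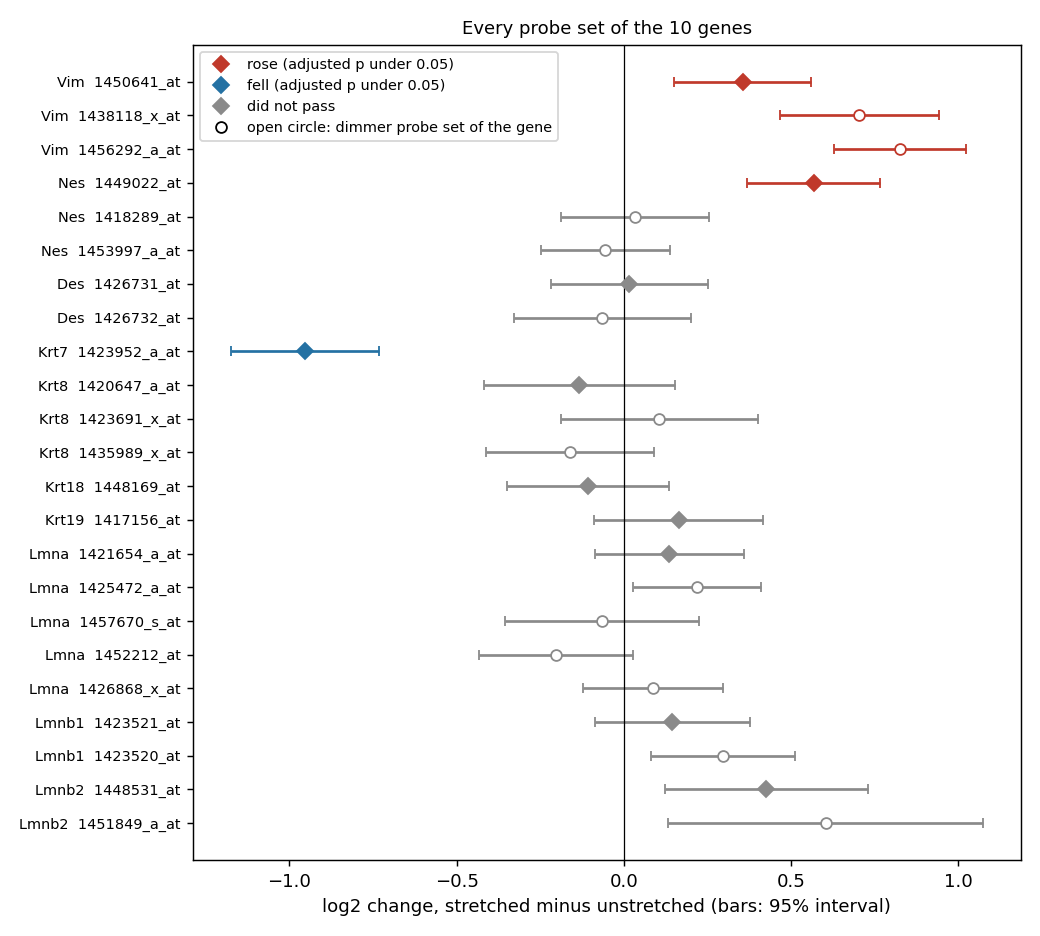
The log2 change, stretched minus unstretched (horizontal axis), with its 95% interval for each of the 23 probe sets, tested over all probe sets on the array. Filled diamonds are the brightest probe set of a gene, and all 3 Vim probe sets but 1 of 3 Nes probe sets lie to the right of zero past the threshold.

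Of the 23 probe sets, 4 rose and 1 fell when every probe set was tested, against 6.47% and 4.51% of all probe sets on the array. The 4 were the 3 of Vim and the brightest of Nes, and the 1 was that of Krt7. Of these, 9 did not overlap between the groups, where 29.5% of all probe sets did not, and 10 were dimmer than the median gene.

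Keratin 7 (Krt7), a type II keratin of simple and ductal epithelia, was the one gene of the 10 that fell. Its only probe set, 1423952_a_at, had log2 values of 5.94, 6.09 and 6.16 on stretched arrays, against 7.06, 6.88 and 7.11 on unstretched arrays. The gap between the groups was wider than the range within either. The means were 6.06 ± 0.11 in stretched and 7.02 ± 0.12 in unstretched cells (SD, n = 3 each). Krt7 was thus 1.94-fold lower, with a limma adjusted p of 0.000173 for a log2 change of -0.95 (SE 0.10, 95% interval -1.17 to -0.74), and 1.03% of all genes had a larger absolute change. The call held in all 14 alternatives, with log2 changes of -1.02 to -0.89 and adjusted p of 5.00e-05 to 0.00141.

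Krt7 lies in the keratin cluster of chromosome 15. In gene order, its neighbours include the keratin genes Krt80 on one side and Krt88, Krt81 and Krt86 on the other. Among the nearest 5 measured coding genes on each side, a window chosen after the values were seen, only the nuclear receptor gene Nr4a1 passed, and it rose by 0.82 on the log2 scale (SE 0.09, limma adjusted p = 0.000327). The adjacent Krt80 and Krt88 had log2 changes of -0.16 (SE 0.13) and -0.14 (SE 0.10).

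Keratins 8 and 18, the obligate type II and type I pair of simple epithelia, did not pass. The standing probe set of Krt8, 1420647_a_at, read 4.68, 4.96 and 4.76 on stretched arrays, against 5.18, 4.92 and 4.70 on unstretched arrays. Krt18 (1448169_at) read 3.94, 4.21 and 4.10 on stretched arrays, against 4.36, 4.15 and 4.05 on unstretched arrays. In both genes the groups overlapped, and unstretched replicate 1 was the highest array.

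Krt8 differed by -0.13 log2 units (SE 0.13, 95% interval -0.41 to 0.14), with a limma adjusted p of 0.551. Krt18 differed by -0.11 log2 units (SE 0.11, 95% interval -0.34 to 0.13), with a limma adjusted p of 0.576. The dimmer Krt8 probe sets, both with the suffix _x_at, had log2 changes of 0.11 and -0.16. Both intervals hold falls and rises, so they do not show that the levels were equal.

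Krt19, which encodes a small type I keratin that can pair with keratins 7 and 8, did not pass either. Its probe set, 1417156_at, read 4.06, 4.23 and 3.82 on stretched arrays, against 3.94, 3.78 and 3.90 on unstretched arrays. The groups overlapped, with stretched replicates 1 and 2 above all unstretched arrays and stretched replicate 3 between them. Krt19 differed by 0.16 log2 units (SE 0.11, 95% interval -0.08 to 0.41), with a limma adjusted p of 0.382. Krt8, Krt18 and Krt19 were all dimmer than the median gene, whereas Krt7 was brighter.

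The A-type lamin gene Lmna, whose transcripts give lamins A and C, was read by 5 probe sets, and none passed. The brightest, 1421654_a_at, read 8.73, 8.75 and 8.64 on stretched arrays, against 8.74, 8.56 and 8.42 on unstretched arrays. Unstretched replicate 1 lay within the stretched range and the other two unstretched arrays below it. Lmna differed by 0.14 log2 units (SE 0.10, 95% interval -0.08 to 0.35), with a limma adjusted p of 0.416.

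Across the 5 Lmna probe sets the log2 changes ran from -0.20 to 0.22. Probe set 1425472_a_at read 7.55, 7.61 and 7.57 on stretched arrays, against 7.26, 7.37 and 7.43 on unstretched arrays. Its groups did not overlap, but it did not pass over all probe sets (log2 change 0.22, SE 0.09, limma adjusted p = 0.147). Probe set 1452212_at, which was dimmer than the median gene, had a log2 change of -0.20 (SE 0.10, limma adjusted p = 0.262).

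Lamin B1 (Lmnb1), a B-type lamin that stays farnesylated and membrane-bound, was read by a pair of probe sets. The brighter, 1423521_at, read 8.30, 8.54 and 8.53 on stretched arrays, against 8.35, 8.17 and 8.41 on unstretched arrays, with overlap between the groups. By this probe set Lmnb1 differed by 0.14 log2 units (SE 0.10, 95% interval -0.08 to 0.37), with a limma adjusted p of 0.402. The dimmer, 1423520_at, read 7.31, 7.33 and 7.07 on stretched arrays, against 6.94, 6.89 and 6.99 on unstretched arrays. Its groups did not overlap, and its log2 change was 0.30 (SE 0.10, limma adjusted p = 0.0805 over all probe sets).

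Lamin B2 (Lmnb2), the second B-type lamin gene, lay close to the threshold. Probe set 1448531_at read 8.11, 8.21 and 8.24 on stretched arrays, against 7.82, 7.43 and 8.02 on unstretched arrays. The groups did not overlap, and the unstretched arrays spread widely, with replicate 2 the lowest. The means were 8.18 ± 0.07 in stretched and 7.76 ± 0.30 in unstretched cells (SD, n = 3 each). Lmnb2 differed by 0.43 log2 units (SE 0.13, 95% interval 0.13 to 0.72), or 1.34-fold in level, which missed the threshold in limma (adjusted p = 0.0555).

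The dimmer Lmnb2 probe set, 1451849_a_at, had the same pattern. It read 6.27, 6.52 and 6.72 on stretched arrays, against 6.24, 5.33 and 6.13 on unstretched arrays, again with unstretched replicate 2 the lowest. Its log2 change was 0.60 (SE 0.21, limma adjusted p = 0.104 over all probe sets). Without unstretched replicate 2 the log2 change of the brighter probe set was 0.26 (adjusted p = 0.138), and without unstretched replicate 3 it was 0.56 (adjusted p = 0.0145), over a range of 0.0145 to 0.158 in all alternatives. Lmnb2 also passed in other alternatives, among them arrays centred on their medians (limma adjusted p = 0.0451), the fit without dim genes (0.0426) and a trended, robust prior (0.0309).

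Whether pairs of these genes changed unequally was tested on the difference between them on the same array, for 6 pairs. Only the change of such a difference is read here, because levels of different probe sets cannot be compared. The smallest p of this two-sided exact permutation test is 0.1, so no pair could pass, and the smallest p adjusted over the 6 pairs was 0.2.

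Krt8, Krt18 and Krt19 were dimmer than the median gene and may be near background, which limits what differences that include them show. The Vim minus Krt8 difference was 7.51, 7.32 and 7.48 on stretched arrays, against 6.56, 7.05 and 7.23 on unstretched arrays. Its change was 0.49 log2 units, and that of Vim minus Krt18 was 0.46, beside 0.35 for Vim alone, with no overlap in either (exact permutation p = 0.1 for each, the smallest possible). Without unstretched replicate 1 the changes were 0.29 for Vim minus Krt8 and 0.31 for Vim minus Krt18. Krt7 minus Krt19 was 1.88, 1.86 and 2.35 on stretched arrays, against 3.12, 3.10 and 3.21 on unstretched arrays, a change of -1.12 with no overlap (exact permutation p = 0.1).

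The Krt8 minus Krt18 difference was 0.72 ± 0.04 in stretched and 0.75 ± 0.09 in unstretched cells (SD, n = 3 each, exact permutation p = 0.7), which does not show that this keratin pair stayed in balance. Lmna minus Lmnb1 was 0.43, 0.21 and 0.11 on stretched arrays, against 0.38, 0.39 and 0.01 on unstretched arrays, a change of -0.01 (exact permutation p = 1). Lmna minus Lmnb2 was 0.62, 0.54 and 0.40 on stretched arrays, against 0.91, 1.12 and 0.40 on unstretched arrays, a change of -0.29 (exact permutation p = 0.4). In both lamin pairs the groups overlapped with all 6 arrays. For Lmna minus Lmnb2 this rested on single arrays: the change was -0.50 with no overlap without unstretched replicate 3 (exact permutation p = 0.1, the smallest possible) and -0.13 without unstretched replicate 2. With averaged probe sets it was -0.48 for Lmna minus Lmnb2 (exact permutation p = 0.2) and -0.19 for Lmna minus Lmnb1 (exact permutation p = 0.3).

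**Figure D3:**
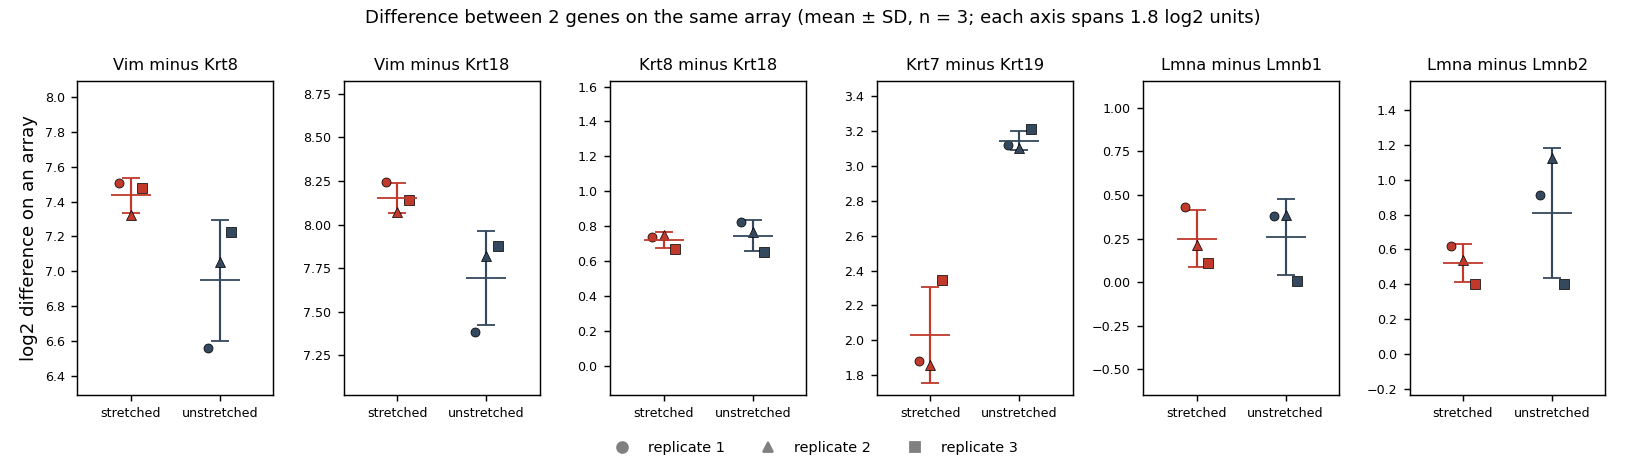
The log2 difference between paired genes on the same array (vertical axis) for stretched (red) and unstretched (dark) arrays, with the mean and SD. The groups are separate for Vim minus Krt8, Vim minus Krt18 and Krt7 minus Krt19, and overlap for Krt8 minus Krt18 and both lamin pairs.

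Other filament genes were mostly dim. Of 25 measured, 24 were dimmer than the median gene, and the median log2 change was 0.00. In limma 1 rose and 1 fell, against 7.98% and 6.76% of all genes. The gene that rose was Bfsp2, a filament protein of the eye lens (5.40 ± 0.05 in stretched and 5.05 ± 0.18 in unstretched cells, SD, n = 3 each), by 0.35 (SE 0.10, limma adjusted p = 0.0420). The gene that fell was Krt15, a basal epidermal keratin (4.17 ± 0.05 in stretched and 4.50 ± 0.07 in unstretched cells, SD, n = 3 each), with a log2 change of -0.33 (SE 0.08, limma adjusted p = 0.0222). Krt15 is the neighbour of Krt19 in gene order on chromosome 11. The Bfsp2 call ended without stretched replicate 1 (limma adjusted p = 0.0919), 2 (0.134) or 3 (0.105), without unstretched replicate 1 (0.125) or 3 (0.101) and with every probe set tested (0.0590). The Krt15 call ended without stretched replicate 1 (limma adjusted p = 0.0896) or 3 (0.0741) and without unstretched replicate 1 (0.0545) or 2 (0.0703).

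Some genes of proteins that anchor filaments or keep them folded had larger changes, while 11 of the 16 measured did not pass. Of 16 measured linkers and chaperones, 5 rose and 0 fell in limma, against 7 and 1 at an unadjusted p under 0.05, with a median log2 change of 0.08. The 5 that rose in limma can be read beside 7.98% of all genes. The unadjusted counts have no such share beside them, and no test of the list was made.

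Hspb1, a small heat shock protein that binds filaments, rose by 1.30 (SE 0.11), with 8.54 ± 0.14 in stretched and 7.24 ± 0.16 in unstretched cells (SD, n = 3 each, limma adjusted p = 5.09e-05). Epiplakin (Eppk1), which binds keratin and vimentin filaments, rose by 1.04 (SE 0.11), with 5.76 ± 0.14 in stretched and 4.72 ± 0.14 in unstretched cells. Over the 6 arrays Eppk1 was dimmer than the median gene. The desmosomal plaque protein gene Pkp2 rose by 1.00 (SE 0.13), plakoglobin (Jup) by 0.44 (SE 0.08) and the cochaperone Bag3 by 0.58 (SE 0.12), all on the log2 scale. Limma adjusted p for these was 0.000166 for Eppk1, 0.000552 for Pkp2, 0.00583 for Jup and 0.00811 for Bag3, and each of the 5 passed in all its alternatives. The change of Pkp2 was 0.40 with its probe sets averaged. Its probe set 1429183_at was nearly as bright as the standing one (means of 8.50 and 8.51). That probe set changed by 0.35 (SE 0.11) and did not pass over all probe sets (limma adjusted p = 0.0614). The dimmer 1420259_at changed by 0.34 (limma adjusted p = 0.0478) and 1460511_at by -0.09 (limma adjusted p = 0.777), so the size depended on the probe set. Plectin (Plec), the broadest of the filament linkers, differed by 0.26 log2 units (SE 0.08) and missed the threshold (limma adjusted p = 0.0523).

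Among 22 genes of lamin processing and the nuclear envelope, 3 rose and 2 fell in limma, with a median log2 change of 0.08. Over all genes 7.98% rose and 6.76% fell, and no test of the list was made. Syne1, a nesprin that ties the nucleus to the cytoskeleton, fell the most, with 5.77 ± 0.18 in stretched and 7.08 ± 0.16 in unstretched cells (SD, n = 3 each). Its log2 change was -1.31 (SE 0.12, limma adjusted p = 7.71e-05), and -0.49 with its probe sets averaged, which still passed (0.00341). Only the standing probe set, 1455493_at, passed over all probe sets. The dimmer 1421545_a_at changed by -0.26 (limma adjusted p = 0.176) and 1455225_at by 0.09 (limma adjusted p = 0.697). The farnesyltransferase subunit gene Fntb, needed to modify lamins, fell by 0.39 on the log2 scale (SE 0.11, limma adjusted p = 0.0318), a call lost by leaving out stretched replicate 2 (limma adjusted p = 0.0837), stretched replicate 3 (0.123), unstretched replicate 1 (0.0852) or unstretched replicate 3 (0.0748).

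The 3 that rose were Lemd3, Lbr and Tor1a. Lemd3, which encodes an inner nuclear membrane protein, rose by 0.48 (SE 0.08, limma adjusted p = 0.00308), the lamin B receptor Lbr by 0.44 (SE 0.09, limma adjusted p = 0.00871) and the lumenal ATPase gene Tor1a by 0.40 (SE 0.08, limma adjusted p = 0.00872) on the log2 scale. The Lemd3 call ended with averaged probe sets (adjusted p = 0.121). The prelamin A protease gene Zmpste24 had a log2 change of 0.23 (SE 0.09, limma adjusted p = 0.121), emerin (Emd) 0.08 (SE 0.08, limma adjusted p = 0.590) and Sun2, which binds nesprins, 0.28 (SE 0.09, limma adjusted p = 0.0677).

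**Figure D4:**
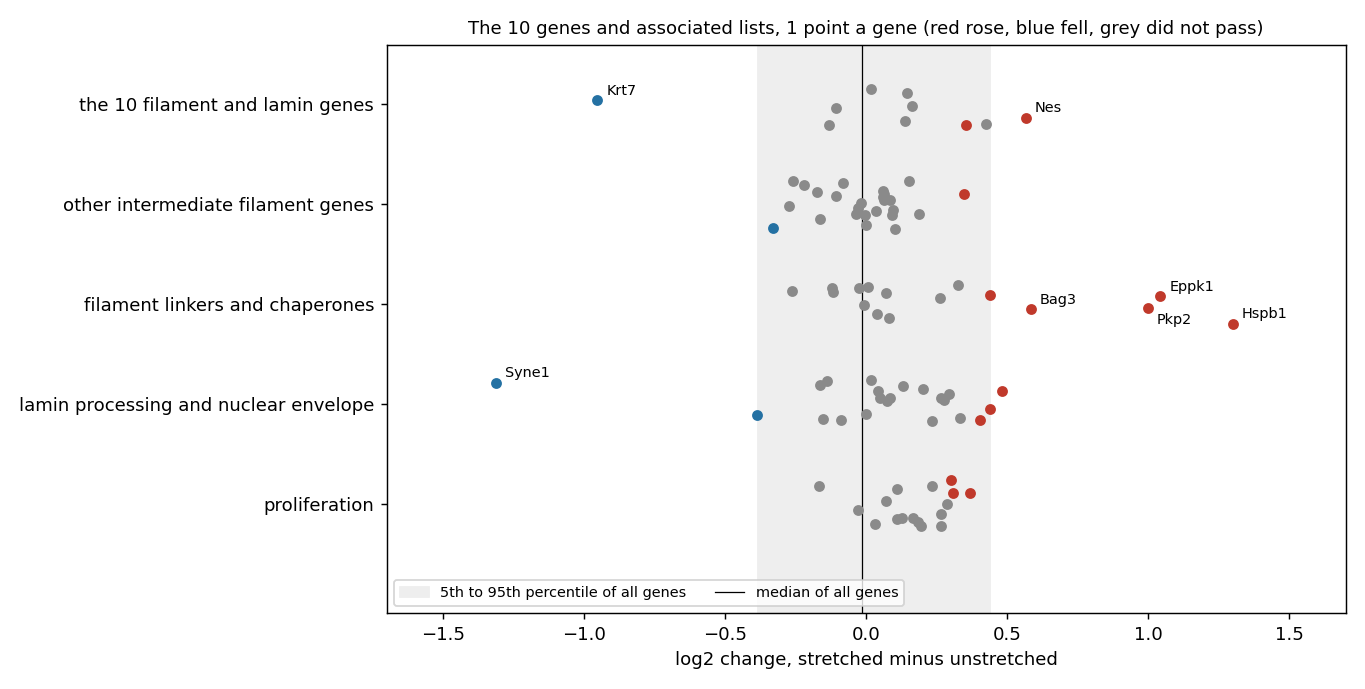
The log2 change, stretched minus unstretched (horizontal axis), of the 10 genes and of each associated list, 1 point a gene, with red for genes that rose, blue for genes that fell and the 5th to 95th percentile of all genes in grey. Krt7 and Syne1 lie far below the grey band, Nes, Lemd3, Hspb1, Eppk1, Pkp2 and Bag3 lie above it, and Fntb, Lbr and Jup lie at its edges.

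Markers of proliferation, which is known to go with lamin B1 expression, were all brighter than the median gene. Of 17 measured, 3 rose (Mcm3, Mcm5 and Rrm2) and 0 fell in limma, against 8 and 0 at an unadjusted p under 0.05. The unadjusted counts have no share of all genes beside them, so they cannot be read as unusual. Over all genes 7.98% rose and 6.76% fell in limma. The mean log2 value of the 17 was 10.36 to 10.41 on stretched and 10.20 to 10.25 on unstretched arrays. The count was 0 without stretched replicate 1 or 3, 1 without stretched replicate 2 or unstretched replicate 1 or 2, and 5 without unstretched replicate 3, and its part in the lamin values was not tested.

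Markers of other cells were read beside the keratin and vimentin changes. Each adjusted count of a list stands beside 7.98% of all genes that rose and 6.76% that fell in limma. The unadjusted counts have no such share beside them, and no list was tested. In the parietal and tubule list 2 of 10 rose (Pax8 and Cldn1) and 0 fell in limma, against 3 and 0 at an unadjusted p under 0.05, at a mean log2 value of 5.96 to 5.98 on stretched and 5.78 to 5.82 on unstretched arrays. That mean hides a wide span, as 6 of the 10 were dimmer than the median gene. The tubule markers Cdh16 (means of 10.89 in stretched and 10.54 in unstretched cells) and Lrp2 (10.13 and 10.07) were far brighter. Neither passed (limma adjusted p = 0.177 and 0.730). In the mesangial and smooth muscle list 1 of 8 rose (Pdgfrb) and 0 fell, against 3 and 0 unadjusted, at 6.45 to 6.55 on stretched and 6.38 to 6.41 on unstretched arrays. Of these 8, 5 were dimmer than the median gene. Acta2 was far brighter (means of 13.50 in stretched and 13.35 in unstretched cells) and did not pass (limma adjusted p = 0.260). The other Pdgfrb probe set, 1417148_at, was nearly as bright as the standing one (means of 8.34 and 8.62). It changed by -0.15 and did not pass over all probe sets (limma adjusted p = 0.292). In the endothelial list 0 of 7 rose or fell, with 0 unadjusted, at 4.15 to 4.31 on stretched and 4.22 to 4.34 on unstretched arrays, and 6 of the 7 were dimmer than the median gene. In the leukocyte list 2 of 6 fell (Cd68 and Csf1r) and 0 rose, against 4 and 0 unadjusted, at 5.06 to 5.17 on stretched and 5.36 to 5.50 on unstretched arrays. All but Csf1r, 5 of the 6, were dimmer than the median gene, Cd68 among them, and may be near background. With averaged probe sets the calls of Synpo, Pax8, Cldn1 and Pdgfrb ended (limma adjusted p = 0.0837, 0.0570, 0.129 and 0.280). The part of such cells in the changes of Vim, Nes and Krt7 was not tested.

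The genes with array-by-array patterns nearest to those of Nes and Krt7 were found by the root mean square distance between values centred on each gene's mean over the 6 arrays. For Nes they were Dkc1 (0.04 log2 units), Tmem109 (0.04) and Tmem107 (0.05). For Krt7 they were Tap1 (0.06), a peptide transporter gene, Lgalsl (0.06) and the signalling protein gene Wnt5a (0.07).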

How the data were processed

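The authors made the deposited log2 values, 1 for each probe set on each of 6 arrays, with RMA, per the submitters' processing notes. RMA by default corrects background, quantile normalizes and summarises probes. Its version is not given in the sources used here, nor is a genome build. Signal over background is unknown because no scanner file or detection call was used, changes of dim probe sets are compressed by RMA, and the number of arrays limits the precision.

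Of 45101 probe sets, 64 controls were left out. The platform annotation gave 34945 of the others 1 gene symbol and 932 several, and 9160 were unnamed here. Symbols were updated through RefSeq gene IDs (34741 matched). For each of 18193 genes, the brightest probe set (by its mean over the 6 arrays) stood for the gene, with no filter. Groups came from the sample titles.

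The difference, stretched minus unstretched, came from lmFit and eBayes of limma 3.58.1 in R 4.3.3, with Benjamini-Hochberg adjustment over all genes at 0.05. Every probe set was fitted the same way. Pairs of genes were compared with exact permutation tests over arrays. Lists (other filament genes, linkers and chaperones, nuclear envelope, proliferation, markers of 5 kinds of cell) are described by counts, medians and levels. Genes were named as follows: all 10 genes, each called gene of a list with 5 or fewer calls, otherwise the 4 with the largest statistic, and the 3 genes nearest in pattern to the largest rise and the largest fall. Other genes named (Plec, Zmpste24, Emd, Sun2, Krt80, Krt88, Krt81, Krt86, Nr4a1, and podocyte, tubule and smooth muscle markers by brightness) were chosen after their values were seen. The genes and lists were chosen with earlier results of these data known. The fit was tested on data simulated for this comparison, with independent noise and changes in 200 of 18193 genes. It recovered 91.0% of changes of 1 log2 unit and 43.0% of changes of 0.5, and 1.47% of calls were false. In the data themselves 14.7% of genes were called, and noise need not be independent, so these rates may not hold there.

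The alternatives tried were a replicate block (fixed, then random), leaving out each array, arrays centred on medians, quantile normalization again, no dim genes, averaged probe sets, every probe set tested, and a trended, robust prior.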

Additional observations from a re-analysis of the deposited data

How the results depend on the processing

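Of 136 recomputed changes of the 10 genes, 121 kept their direction and their side of the threshold, 6 lost a call, 6 gained one (all Lmnb2) and 3 turned (all Des). Des had a log2 change of -0.024 with averaged probe sets and -0.056 to 0.081 with an array left out (below zero without stretched or unstretched replicate 2). Of 387 for other named genes, 352 stayed on their side and 35 lost the call. Genes of the 10 that rose numbered 1 with averaged probe sets or quantile normalization again, and 1 to 3 with an array left out. Other filament genes that rose numbered 0 with every probe set tested, 0 without dim genes (which leaves 1 of the list) and 0 to 1 with an array left out, and those that fell 0 without dim genes and 0 to 3. Nuclear envelope genes that rose numbered 6 with centred arrays, a random replicate block or no dim genes and 5 with the trended prior, and those that fell 1 to 2 with an array left out. Proliferation genes that rose numbered 5 with centred arrays, a random replicate block or no dim genes, 6 with the trended prior or averaged probe sets, 1 with quantile normalization again and 0 to 5 with an array left out. All genes called numbered 1661 to 2639 with an array left out (872 to 1450 rose, 767 to 1189 fell). Rises and falls numbered 1452 and 1229 as deposited, 1149 and 1544 after quantile normalization again and 1666 and 1028 with centred arrays. The cause of these shifts was not tested.

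Krt8 minus Krt18 had a change of 0.043 with averaged probe sets and -0.075 to 0.012 with an array left out, and Lmna minus Lmnb1 -0.13 to 0.063. Same-numbered arrays had correlations of their deviations of 0.02, 0.15 and 0.28, against -0.24 to 0.11 for arrays of different numbers. These few values do not settle whether the numbers mark pairs. The main fit left pairing out because the labels do not state it. With the replicate block, 3102 genes passed, 3 of the 10 rose (Lmnb2 at a limma adjusted p of 0.0347, 0.0350 with a random block) and 1 fell, and pair changes were as without it, with a smallest sign-flip p of 0.25. Dim genes (Des, Krt8, Krt18, Krt19) may be near background, which limits what their values show.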
